A study of Rattus norvegicus with 8 samples.

Results

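The genes described here carry glucose through glycolysis to lactate, run the pentose phosphate branch and gluconeogenesis, or belong to the response to low oxygen. The set was a list of 38 rat gene symbols, and a gene entered through every array probe whose RefSeq transcript accession belongs to it. Probes were matched for 35 of the 38 genes, 43 probes in all, out of 24684 probes and 13903 named genes on the array. No probe was matched for Hk1, Ldhb and Pgd, whose expression is not analysed here.

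RNA was measured on 8 Arraystar rat lncRNA arrays, 1-colour Agilent slides that also carry probes for mRNAs. The arrays held 3 lung tumors and 3 normal lung tissues of male F344 rats treated with NNK, all collected in week 95. NNK is 4-(methylnitrosamino)-1-(3-pyridyl)-1-butanone, a nitrosamine of tobacco smoke that induces lung tumors in rats. The study describes the tumors and normal lungs as matched, and their titles number both groups from 1 to 3. The other arrays held the clot of whole blood from 1 rat of the control group and 1 rat of the NNK treatment group in the same week. The lung arrays hold no tissue from untreated rats, so both lung groups carry the NNK treatment. The study's methods describe the tumors as adenocarcinomas of moderate differentiation. Neither the dose of NNK nor the age of the rats at its start is given in the sources used here.

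Some features of the arrays bear on every value below. The 3 normal lung arrays differed from each other by less than the spread between repeated spots of a probe (ratio of observed to expected squared difference 0.572 to 0.899), and lung tumor 2 and lung tumor 3 did so too (0.563), while lung tumor 1 differed from them (3.40 and 3.69) and tumor from normal lung by 9.64 to 13.7. For most genes named below that passed the adjusted p, the value is therefore also given with such arrays counted as 1 sample, that is 1 normal lung sample against 2 tumor samples, and p-values over the 6 arrays may measure technical spread only. The reading with arrays counted once measures no spread among normal lungs. Its adjusted p rests on the 2 tumor samples and on the spread that limma borrows from all probes. The normal lungs and lung tumor 1 shared a slide, tumors 2 and 3 were on another and both blood arrays on another again. Median processed signals were 25.0 to 35.6 in lung, 11.8 in control blood and 32.0 in NNK blood, with 0 spots flagged as saturated. Among spots well above background, the scanner software marked 4.92 to 8.62% as outliers on normal lung arrays and 15.9 to 25.3% on tumor arrays. The number of arrays limits the precision. A label of the NNK blood sample, its description, was that of lung tumor 3, and its other labels named blood. On that array the hemoglobin probe Hbb had a processed signal, before normalization, of 659641, against 658487 on the control blood array and 137208 to 203029 on the lung arrays. Alas2, another red blood cell marker, read 659642 on the NNK blood array, so that such values may lie at the top of the scale. Of 7 type 2 alveolar (surfactant cell) markers with a probe, 4 were well above background on both blood arrays, Sftpb and Lamp3 on the NNK array only and Sftpc on neither. Their summed signal was 3266 in control and 8811 in NNK blood, against 870900 to 1110000 in lung.

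Glycolysis splits glucose into pyruvate, and cells that make more pyruvate than their mitochondria take up reduce it to lactate with lactate dehydrogenase and export it through monocarboxylate transporters. The pentose phosphate branch takes glucose-6-phosphate aside to make NADPH and ribose, while gluconeogenesis runs the opposite way with enzymes of its own. Low oxygen stabilises the transcription factor HIF-1, which switches on glucose transporters, many glycolytic enzymes and signals to blood vessels such as Vegfa. A high rate of glycolysis in the presence of oxygen is a long known feature of many tumors.

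In lung tumor the lactate exporter Slc16a3 (MCT4) was the only one of the tested genes that rose by at least 2-fold, while Pck1, the entry enzyme of gluconeogenesis, and Vegfa, the growth factor for blood vessels, fell by at least 2-fold. Adm, a vessel-widening peptide hormone induced by low oxygen, was also more than 2-fold lower, but on spots that all carried an outlier mark in the tumors. Of the 35 genes with a probe, 22 were tested, 8 had too few unmarked spots and 5 (Hk2, Pfkfb3, Slc2a3, Pklr and Pdk4) were well above background on fewer than 3 lung arrays. A gene was called where limma gave an adjusted p of at most 0.05, with Benjamini-Hochberg adjustment over all 12471 probes tested, and a fold change of at least 2. By this rule 1 of 22 rose and 2 of 22 fell, against 11.5% of the 7878 genes tested over the array that rose and 16.7% that fell.

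A further 6 of the 22 passed the adjusted p with a rise under 2-fold (Slc2a1, Hk3, Pfkp, Pgam1, Ldha and Egln3) and 4 with a fall under 2-fold (Pfkl, Pfkm, Hif1a and Bnip3), while 9 did not pass. By the adjusted p alone 7 of 22 thus rose and 6 of 22 fell, against 32.8% and 33.3% of all genes tested, so that neither share was above that of the array. The groups did not overlap for 16 of 22 genes, against 74.3% of all genes tested. The median log2 fold change was -0.22 over the 22 genes and 0.00 over all genes tested. With outlier-marked spots kept, 30 genes had a value, and 1 rose and 3 fell by at least 2-fold. Over all genes read that way, 11.8% rose and 15.2% fell by as much. The median was -0.01 over the 30 genes and 0.02 over all genes read that way. With near-identical arrays counted once, the 3 called genes (Slc16a3, Pck1 and Vegfa) kept both thresholds, and none of the 10 genes with a smaller change kept the adjusted p.

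**Figure D1:**
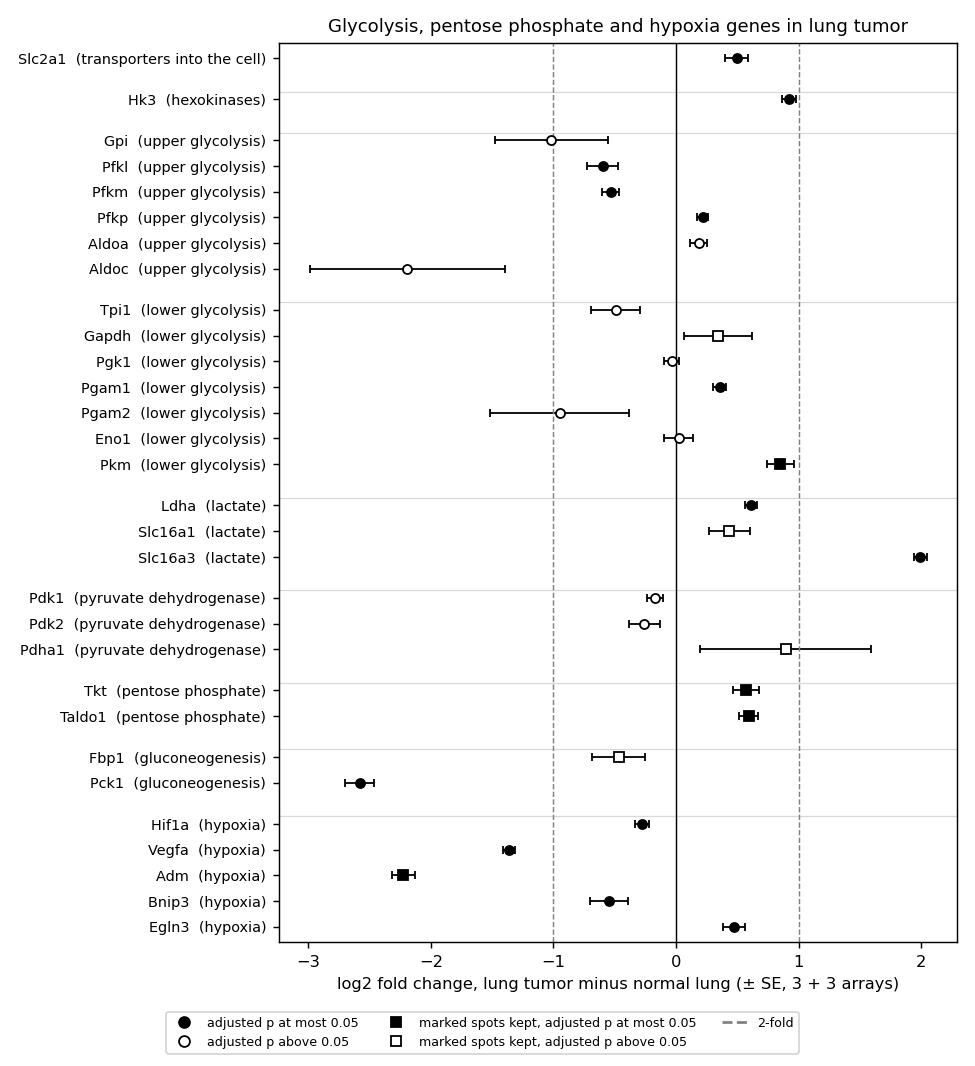
Log2 fold change of lung tumor over normal lung (x axis) for the 30 genes with a value, ordered by role (y axis), with bars for the standard error of the fit over 3 tumor and 3 normal arrays. Filled symbols passed the adjusted p, squares mark genes whose outlier-marked spots were kept, and dashed lines show 2-fold; Slc16a3 at 1.99, Pck1 at -2.58, Adm at -2.22 and Vegfa at -1.36 lie outside them with small errors, while Aldoc at -2.19 has an error of 0.80.

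The promoters of genes that moved were read for the core letters of the hypoxia response element, since the list joins glycolytic genes with genes of the low-oxygen response. The windows are the 250 bases before the RefSeq start in the assembly GRCr8, given 5′ to 3′ on the gene's strand, and capitals mark ACGTG or GCGTG on either strand (read as CACGT or CACGC on the other one). The run CACGTG holds ACGTG on both strands. Shown first are 3 genes with such letters, the glucose importer Slc2a1, the lactate-forming enzyme Ldha and the mitochondrial protein Bnip3.
Slc2a1, chr5:138002272-138002521, plus strand: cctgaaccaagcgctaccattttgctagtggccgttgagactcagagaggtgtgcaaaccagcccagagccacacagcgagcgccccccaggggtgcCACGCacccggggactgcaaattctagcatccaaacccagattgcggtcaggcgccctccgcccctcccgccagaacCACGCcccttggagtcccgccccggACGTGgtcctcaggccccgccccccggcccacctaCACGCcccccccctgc
Ldha, chr1:106507842-106508091, plus strand: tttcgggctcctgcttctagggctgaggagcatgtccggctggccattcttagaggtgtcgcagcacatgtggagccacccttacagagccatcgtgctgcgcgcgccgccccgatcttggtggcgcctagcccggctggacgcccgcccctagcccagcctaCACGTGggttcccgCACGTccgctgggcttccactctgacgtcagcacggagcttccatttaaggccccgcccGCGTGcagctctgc
Bnip3, chr1:203154963-203155212, minus strand: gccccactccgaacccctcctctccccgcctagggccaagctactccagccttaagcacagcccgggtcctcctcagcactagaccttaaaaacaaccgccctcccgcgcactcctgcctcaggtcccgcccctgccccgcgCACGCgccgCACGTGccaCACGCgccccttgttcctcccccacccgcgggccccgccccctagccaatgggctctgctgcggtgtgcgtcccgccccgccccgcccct
The next 3 are the genes past both thresholds in lung that have a single start in the table, and their windows hold neither run.
Slc16a3, chr10:106712078-106712327, plus strand: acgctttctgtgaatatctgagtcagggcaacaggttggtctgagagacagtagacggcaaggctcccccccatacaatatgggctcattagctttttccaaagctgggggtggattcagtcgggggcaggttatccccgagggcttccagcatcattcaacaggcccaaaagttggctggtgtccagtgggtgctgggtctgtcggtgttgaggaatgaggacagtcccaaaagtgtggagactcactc
Pck1, chr3:182348322-182348571, plus strand: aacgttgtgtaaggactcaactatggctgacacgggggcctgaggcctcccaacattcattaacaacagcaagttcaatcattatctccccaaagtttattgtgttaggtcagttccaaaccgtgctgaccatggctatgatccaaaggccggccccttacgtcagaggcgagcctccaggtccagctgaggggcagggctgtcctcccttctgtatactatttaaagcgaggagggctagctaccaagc
Adm, chr1:174179950-174180199, plus strand: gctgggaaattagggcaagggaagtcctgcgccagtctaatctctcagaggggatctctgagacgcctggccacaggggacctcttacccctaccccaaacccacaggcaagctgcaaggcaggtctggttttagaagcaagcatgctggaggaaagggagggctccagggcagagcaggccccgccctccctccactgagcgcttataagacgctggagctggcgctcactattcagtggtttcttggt
Promoters were matched for 36 of the 38 genes (not for Slc2a3 and Pgk1, but for the 3 genes without a probe), 41 windows in all because some genes have several starts. ACGTG or GCGTG stood in 23 of the 41 windows (56.1%), against 36.7% of the 33469 promoters of the table. ACGTG stood in 14 windows (34.1%, against 16.6%) and GCGTG in 16 (39.0%, against 25.9%), and windows with both runs count in each. In Ldha the runs began 87, 86, 73 and 14 bases before the start and in Slc2a1 153, 76, 51 and 16 bases before it. Both Vegfa windows held neither run, which says only that these letters are not in these 250 bases. Genes with the runs moved both ways in lung, since Slc2a1 and Ldha rose and Bnip3 fell, each by less than 2-fold.

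Glucose enters lung cells through facilitative transporters, of which Slc2a1 (GLUT1) is the widespread form. Slc2a1 read 13.44, 13.49 and 13.48 on the normal lung arrays and 13.92, 13.83 and 14.15 on the tumor arrays (log2 signal, here and for all values by array). All tumor arrays lay above all normal arrays, by 0.50 ± 0.09 (log2 fold change ± SE, adjusted p = 0.0058, limma). With near-identical arrays counted once its difference was 0.48 (adjusted p = 0.195). Slc2a3 (GLUT3), a high-affinity form of neurons and blood cells, was well above background on normal lung array 1 only and was not tested.

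Hexokinases trap glucose in the cell as glucose-6-phosphate. Hk3, the form of white blood cells, read 11.55, 11.54 and 11.56 in normal lung and 12.54, 12.49 and 12.40 in tumor. The groups stood apart by 0.93 ± 0.06 (adjusted p = 7.8e-05), just under 2-fold, and by 0.94 (adjusted p = 0.078) with near-identical arrays counted once. Of the macrophage markers, 8 of 9 had a probe and 6 were tested, and 0 changed by 2-fold by limma, also at an unadjusted p. By the adjusted p, Mrc1 (0.36) and C1qa (0.52) rose and Csf1r (-0.77) and Adgre1 (-0.23) fell, with a median log2 fold change of 0.11 over the 6. Their summed signal was 178600 to 188700 in normal lung and 190800 to 223400 in tumor, with Marco and Cd163 not well above background on any lung array. The summed signal of the 7 neutrophil markers with a probe went the other way, 14240 to 15050 in normal lung and 3570 to 4365 in tumor, with Ltf not well above background on any lung array. Most of it was S100a8, whose spot was marked on all 3 tumor arrays. With marked spots kept, S100a8 (-2.12) and Csf3r (-2.40) were lower in tumor. Of the 3 neutrophil genes tested, Mmp8 fell by at least 2-fold near background, Camp fell by -0.56 and Cxcr2 did not pass the adjusted p. The part of macrophages and neutrophils in the value of Hk3 was not tested, and in bulk tissue fewer cells of a type and less RNA per cell cannot be told apart. Hk2, the inducible muscle form, was well above background on normal lung array 1 and lung tumor array 1 only.

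The 3 phosphofructokinase subunits, which form the committing enzyme of glycolysis, moved in different directions. The liver-type subunit Pfkl read 9.66, 9.49 and 9.65 in normal lung and 9.25, 8.86 and 8.90 in tumor, a fall of -0.60 ± 0.12 (adjusted p = 0.0086). The muscle-type subunit Pfkm read 13.13, 13.11 and 13.09 against 12.69, 12.50 and 12.55, a fall of -0.53 ± 0.07 (adjusted p = 0.00125). For both subunits every tumor array lay below every normal array, and the adjusted p was 0.255 for Pfkl and 0.202 for Pfkm with near-identical arrays counted once. The platelet-type subunit Pfkp read 14.84 on each normal array and 15.09, 15.04 and 15.04 in tumor, 0.22 ± 0.05 higher (adjusted p = 0.010). That small rise fell short with the replicate number as a block (adjusted p = 0.051), with near-identical arrays counted once (0.458) and with a 75th percentile shift in place of quantile normalization (0.08, adjusted p = 0.31). Pfkfb3, which makes an activator of phosphofructokinase, was well above background on normal lung arrays 2 and 3 and on no tumor array, and was not tested.

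The other enzymes of the upper part of glycolysis did not pass the adjusted p. Aldoa, the main aldolase outside liver and brain, read 16.77, 16.82 and 16.75 in normal lung and 17.07, 16.92 and 16.91 in tumor (0.19 ± 0.07, adjusted p = 0.057). Its groups did not overlap, and with the slide as a block it passed the adjusted p at 0.29 (adjusted p = 0.0106), still under 2-fold. It also passed under a 75th percentile shift (0.28, adjusted p = 0.023), with quantile normalization over 8 arrays (0.24, adjusted p = 0.049) and with the authors' values (0.31, adjusted p = 0.027). Aldoc, the brain-type aldolase, read 12.48, 12.15 and 10.47 in normal lung and 10.87, 8.76 and 8.91 in tumor (-2.19 ± 0.80, adjusted p = 0.057). Normal array 3 lay below tumor array 1, so that the groups overlapped, although the difference exceeded 2-fold. Pairing tumors with normal lungs by number brought Aldoc past both thresholds (adjusted p = 0.0265), as did leaving out normal lung 3 (-2.81) or lung tumor 1 (-2.87), a 75th percentile shift (adjusted p = 0.0498), the normexp background correction (0.034) and the authors' log2 values (0.048). Counting near-identical arrays once left -1.85 (adjusted p = 0.295), and blocking on the slide left -0.83 (adjusted p = 0.453). Gpi, which turns glucose-6-phosphate into fructose-6-phosphate, read 9.99, 9.27 and 8.21 in normal lung and 8.36, 8.12 and 7.94 in tumor (-1.02 ± 0.46, adjusted p = 0.102). Here too normal array 3 lay among the tumors, and without it the difference of -1.49 passed both thresholds.

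**Figure D2:**
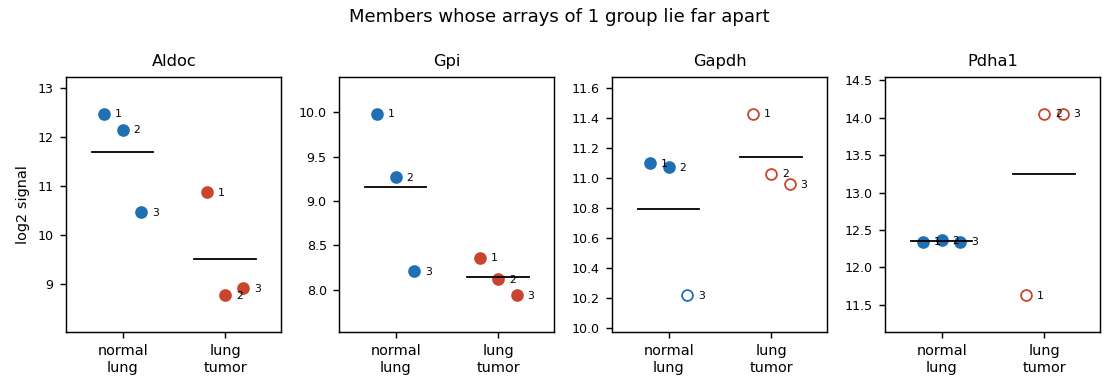
Normalized log2 signal (y axis, scaled separately for each gene) on the 3 normal lung and 3 lung tumor arrays (x axis) for Aldoc, Gpi, Gapdh and Pdha1, with replicate numbers beside the points, lines at the group means and open points for spots that carried an outlier mark. In Aldoc, Gpi and Gapdh normal lung 3 lies far below the other normal lungs, and in Pdha1 lung tumor 1 at 11.63 lies below the normal lungs while tumors 2 and 3 lie above them.

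In the lower part of glycolysis 1 of 5 tested enzymes passed the adjusted p. Of all genes tested 32.8% rose and 33.3% fell by it. Pgam1, the general phosphoglycerate mutase, read 16.43, 16.42 and 16.47 in normal lung and 16.74, 16.82 and 16.83 in tumor. Every tumor array lay above every normal one, by 0.36 ± 0.05 (adjusted p = 0.00225), and the adjusted p was 0.303 with near-identical arrays counted once. Pgk1, which makes ATP in this part of the pathway, differed by -0.04 ± 0.06 (adjusted p = 0.62), with the spot of tumor 3 left out as an outlier. Its other probe, printed in 10 spots, gave -0.19 (adjusted p = 0.034). Tpi1, which interconverts the 3-carbon sugars, read 8.78, 8.74 and 8.74 in normal lung and 8.71, 8.02 and 8.06 in tumor (-0.49 ± 0.20, adjusted p = 0.077). Tumor 1 lay close under the normal lungs and tumors 2 and 3, on the other slide, lay lower, with -0.72 (adjusted p = 0.000234) when tumor 1 was left out. Eno1 (enolase) read 16.10, 16.08 and 16.07 against 16.36, 15.99 and 15.96, with tumor 1 above and the other tumors below the normal lungs (0.02 ± 0.12, adjusted p = 0.89, and 0.28, adjusted p = 0.0091, with the slide as a block and 0.30, adjusted p = 0.0239, as the mean over its probes). A dimmer probe matched to another Eno1 transcript gave 0.59 ± 0.06 (adjusted p = 0.000434), so that the probes of this gene differ in their call. The muscle-type mutase Pgam2 lay near background in lung, well above it on 4 of 6 arrays (-0.95 ± 0.57, adjusted p = 0.19).

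Gapdh and Pkm were read with their outlier-marked spots kept. Gapdh, the reference gene of the qRT-PCR assays of the study, read 11.10, 11.07 and 10.22 in normal lung and 11.43, 11.03 and 10.96 in tumor. Its spot was marked on normal array 3 and on all 3 tumor arrays, and the groups overlapped (0.34 ± 0.28, adjusted p = 0.32). Across the alternatives its difference ranged from 0.05 to 0.63 and passed none of them. Many near-identical pseudogene copies of Gapdh exist, and a probe may not tell their RNA apart, which was not checked here. Pkm, whose splice forms are the pyruvate kinases of muscle and of growing cells, read 11.61, 11.43 and 11.30 in normal lung and 12.42, 12.15 and 12.33 in tumor, with the spots of tumors 2 and 3 marked. The tumors lay above the normal lungs by 0.85 ± 0.11 (adjusted p = 0.00131), and by 0.88 (adjusted p = 0.091) with near-identical arrays counted once. Among genes read with marked spots kept, 33.7% of 10439 rose and 32.6% fell by the adjusted p alone, and 11.8% and 15.2% did so by at least 2-fold. Pklr, the pyruvate kinase of liver and red cells, was well above background on normal lung array 3 and lung tumor array 3 only.

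Lactate production and export held the largest rise of the set. Ldha, the muscle-type subunit of lactate dehydrogenase, read 16.95, 16.94 and 16.90 in normal lung and 17.59, 17.52 and 17.53 in tumor. Tumor and normal arrays were clearly apart, by 0.61 ± 0.05 (adjusted p = 0.000228), and 2 further Ldha probes gave 0.67 and 0.91. With near-identical arrays counted once the adjusted p of Ldha was 0.138. Slc16a3, which exports lactate from glycolytic cells, read 12.49, 12.41 and 12.41 in normal lung and 14.46, 14.39 and 14.44 in tumor. The 6 arrays fell into separate groups with a range of 0.08 in normal lung and 0.06 in tumor, and the tumors lay 1.99 ± 0.05 higher, a 3.98-fold rise (adjusted p = 6.1e-06). Slc16a3 read 2.02 higher in tumor 1 than in the normal lungs of the same slide (adjusted p = 8.6e-05 with the slide as a block). With near-identical arrays counted once the tumor mean was 14.44 ± 0.03 (SD, n = 2) and the difference 2.00 (adjusted p = 0.036). Of the type 2 alveolar markers 6 were tested, with 1 rise of at least 2-fold (Lpcat1, 1.41), 3 smaller rises and 2 smaller falls. Their summed signal was 870900 to 922700 in normal lung and 1076000 to 1110000 in tumor. Of 4 tested adipocyte markers Adipoq was higher by 5.27, 1 rose by less than 2-fold and 2 did not pass. The part of these cells in the rise of Slc16a3 was not tested. Slc16a1 (MCT1), which carries lactate both ways, was marked on all tumor arrays. It read 8.71, 8.93 and 9.13 in normal lung and 9.49, 9.52 and 9.06 in tumor, with tumor 3 among the normal lungs (0.43 ± 0.17, adjusted p = 0.067, and 0.58, adjusted p = 0.0225, without it). Over all arrays it passed under a 75th percentile shift (0.55, adjusted p = 0.024) and with the authors' values (0.42, adjusted p = 0.046).

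**Figure D3:**
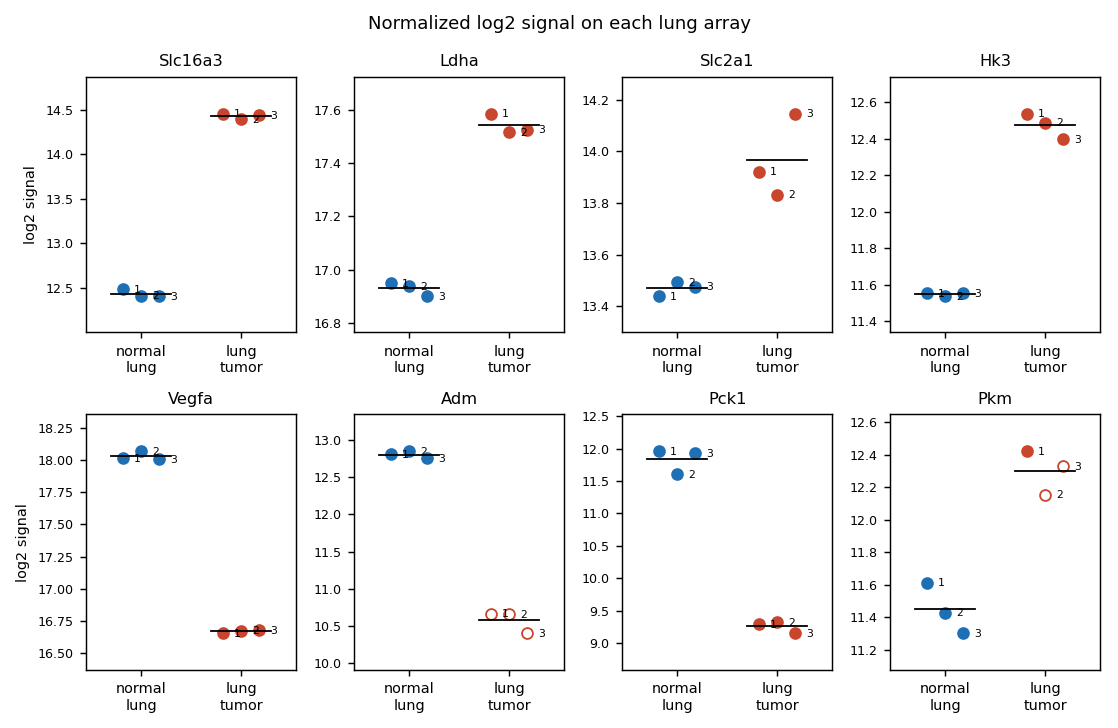
Normalized log2 signal (y axis, scaled separately for each gene) on the 3 normal lung and 3 lung tumor arrays (x axis) for 8 genes, with replicate numbers beside the points, lines at the group means and open points for outlier-marked spots that were kept. The groups do not overlap in any of the 8 genes, all of which passed the adjusted p. They also do not overlap in 74.3% of all genes tested over the array. The smallest difference of group means is that of Slc2a1 (0.50) and the largest that of Pck1 (-2.58).

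Of the genes that govern the entry of pyruvate into the citric acid cycle, none passed the adjusted p in the main analysis. Pdk1 and Pdk2, kinases that switch off pyruvate dehydrogenase, differed by -0.17 ± 0.06 (adjusted p = 0.070, with the spot of tumor 1 left out) and -0.26 ± 0.13 (adjusted p = 0.123). Without lung tumor 1 both passed it with falls under 2-fold, Pdk1 at -0.17 (adjusted p = 0.030) and Pdk2 at -0.38 (adjusted p = 0.0137). Over all arrays both also passed under a 75th percentile shift (-0.32, adjusted p = 0.0131, and -0.40, adjusted p = 0.048), and Pdk1 under the normexp correction (-0.48, adjusted p = 0.0026) and by the methods' t-test (adjusted p = 0.031). Pdk4, the starvation-induced kinase, did not stand well above background in any sample. Pdha1, the catalytic subunit that these kinases act on, read 12.34, 12.37 and 12.34 in normal lung and 11.63, 14.05 and 14.06 in tumor with all tumor spots marked. Tumor 1 lay below the normal lungs of its slide and tumors 2 and 3, on the other slide, above them, so that the difference of 0.89 ± 0.69 (adjusted p = 0.30) has no common direction, with -0.72 when the slide was a block and 1.70 (adjusted p = 1.6e-05) without lung tumor 1.

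The pentose phosphate enzymes of the set, both of the branch that rearranges sugars, were read with marked spots kept. Tkt (transketolase) read 15.45, 15.36 and 15.34 in normal lung and 16.15, 15.96 and 15.77 in tumor. Taldo1 (transaldolase) read 15.27, 15.43 and 15.19 against 15.86, 15.89 and 15.93. In both genes all tumor arrays lay above all normal arrays, by 0.57 ± 0.11 for Tkt (adjusted p = 0.0056) and 0.60 ± 0.08 for Taldo1 (adjusted p = 0.00127). With near-identical arrays counted once the adjusted p was 0.181 and 0.148.

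Of the gluconeogenic enzymes, Pck1 read 11.97, 11.61 and 11.93 in normal lung and 9.29, 9.32 and 9.15 in tumor. The groups stood far apart, with a fall of -2.58 ± 0.12 on the log2 scale, 5.98-fold (adjusted p = 2.6e-05). Within the slide that holds tumor 1 the value was -2.54, and with near-identical arrays counted once the tumor mean was 9.26 ± 0.04 (SD, n = 2) and the difference -2.57 (adjusted p = 0.0347). Liver marker genes were present in the normal lung arrays and moved with Pck1. Of 10 such genes 9 had a probe, 7 were tested and all 7 fell, with a summed signal of 76600 to 78670 in normal lung and 3019 to 4635 in tumor. Most of the sum in normal lung was a single gene, Cyp2e1 (15.75, 15.75 and 15.78). Tat was not well above background on any lung array, and Ambp was so on lung tumor 3 only. The part of these markers in the fall of Pck1 was not tested. Fbp1, the other gluconeogenic enzyme, read 9.72, 9.96 and 9.89 in normal lung and 9.80, 9.39 and 8.97 in tumor with the spots of tumors 2 and 3 marked, and its groups overlapped (-0.47 ± 0.22, adjusted p = 0.109, and -0.67, adjusted p = 0.0152, without tumor 1).

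The genes of the low-oxygen response did not move together, with 2 falls of at least 2-fold, 2 smaller falls and 1 small rise. The larger falls were those of Vegfa and, with marked spots kept, Adm. Over the array 16.7% of genes tested fell by at least 2-fold, and 15.2% with marked spots kept. By the adjusted p alone 32.8% of genes tested rose and 33.3% fell. Hif1a, the oxygen-regulated subunit of HIF-1, is controlled mainly at the protein level, which the arrays do not measure. Its mRNA read 16.08, 16.09 and 16.18 in normal lung and 15.78, 15.88 and 15.85 in tumor, lower on every tumor array by a log2 fold change of -0.28 ± 0.06 (adjusted p = 0.0088). Egln3, an oxygen-sensing prolyl hydroxylase that is itself a HIF target, read 9.85, 9.90 and 9.90 against 10.53, 10.25 and 10.29 (0.47 ± 0.09, adjusted p = 0.0061). Its tumor arrays all lay above the normal arrays. Bnip3, a mitochondrial protein of cell death and mitophagy, read 14.10, 14.36 and 14.40 in normal lung and 13.57 and 13.91 in tumors 1 and 3, with tumor 2 left out for its outlier mark (-0.55 ± 0.16, adjusted p = 0.035). None of these 3 passed with near-identical arrays counted once (adjusted p = 0.365, 0.227 and 0.241), and the adjusted p of Hif1a was 0.092 under the normexp background correction. That of Bnip3 was 0.070 under that correction, 0.068 with no filter on dim probes, 0.081 by the methods' t-test, 0.098 without normal lung 3 and 0.100 without normal lung 2.

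Vegfa read 18.01, 18.07 and 18.01 in normal lung and 16.66, 16.68 and 16.68 in tumor. The arrays of a group nearly coincided and the groups were apart by -1.36 ± 0.05, a 2.57-fold fall (adjusted p = 1.3e-05). All 5 Vegfa probes, matched to different transcripts, gave values from -1.29 to -1.41. The fall was -1.37 within the slide that holds tumor 1, and -1.36 with near-identical arrays counted once (adjusted p = 0.046, tumor mean 16.67 ± 0.02, SD, n = 2). Adm read 12.81, 12.85 and 12.75 in normal lung and 10.67, 10.66 and 10.40 in tumor, with all 3 tumor spots marked. Every tumor array lay far below every normal one, by -2.22 ± 0.09, 4.67-fold (adjusted p = 1.5e-05), by -2.13 within the slide of tumor 1 and by -2.20 (adjusted p = 0.0289) with near-identical arrays counted once. Markers of endothelial and type 1 alveolar cells fell with these genes. Of 9 endothelial genes 6 had a probe and all 4 tested fell, with a summed signal of 205200 to 214400 in normal lung and 36880 to 37170 in tumor and Cdh5 not well above background on any lung array. Of 7 type 1 alveolar genes 5 were tested and 4 fell, with a summed signal of 896800 to 914500 against 296000 to 307000, and all 7 were well above background in lung. The fifth, Rtkn2, did not fall. It was well above background on the 3 tumor arrays and on 0 normal arrays, so that no size is given for its difference. Of the red blood cell markers 4 of 5 tested fell by at least 2-fold (6 of 7 with marked spots kept), with a summed signal of 236200 to 244400 in normal lung and 133100 to 141700 in tumor. All 3 tested platelet markers fell by as much, while the summed signal of that list was 4243 to 4545 in normal lung and 7520 to 8877 in tumor with Pf4, whose spots were marked, 0.98 higher. Proliferation markers rose in 3 of 3 tested, from 5202 to 5654 in normal lung to 21530 to 29620 in tumor. The part of cell makeup and blood content in the falls of Vegfa and Adm was not tested.

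The lists of related pathway genes, none of them in the set, showed different balances. Of 27 other genes of glycolysis and gluconeogenesis 14 were tested, and 7 fell by at least 2-fold while 0 rose, also by the unadjusted p or the methods' t-test, against 16.7% and 11.5% of all genes tested, with a median log2 fold change of -1.54 (0.00 over all genes tested). The count of falls was 4 to 8 over the alternatives, with 4 under the normexp correction. With the authors' values 4 genes of this list rose by at least 2-fold. With outlier-marked spots kept, 22 genes of it had a value, of which 4 rose and 7 fell by as much, with a median of -0.37. Over all genes read that way, 11.8% rose and 15.2% fell by at least 2-fold. Among the genes of the list that fell were Slc2a2 (GLUT2), the glucose transporter of liver and pancreas (-3.43 ± 0.14, adjusted p = 2.1e-05), G6pc1, which releases glucose from liver (-3.21 ± 0.12, adjusted p = 1.5e-05), and Pfkfb1, the liver form of the enzyme that sets fructose-2,6-bisphosphate (-3.07 ± 0.08, adjusted p = 5.7e-06). Slc2a2 was well above background in all normal lungs and in no tumor, so that its fall in the main analysis is only a bound of at least 6.12-fold. That bound depends on the background treatment, since the log2 difference of Slc2a2 was -0.82, a smaller fall, under the normexp correction. Slc2a2, G6pc1 and Pfkfb1 belong to liver metabolism, and the liver markers given beside Pck1 moved with them to an extent that was not tested. With near-identical arrays counted once Slc2a2, G6pc1 and Pfkfb1 each had an adjusted p of 0.0347.

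Of the other pentose phosphate genes 9 of 12 were tested, with 1 called higher and 1 lower, against 11.5% and 16.7% of all genes tested. Rpia, which makes ribose-5-phosphate, read 13.45, 13.53 and 13.49 in normal lung and 14.29, 15.00 and 15.03 in tumor (1.28 ± 0.21, adjusted p = 0.0036). Tumor 1 lay below the other tumors, and within its slide the rise of 0.80 stayed under 2-fold. Rpia also lost the adjusted p with near-identical arrays counted once (1.16, adjusted p = 0.163). Tktl1, a relative of transketolase, lay near background with a difference of -1.79 ± 0.49 (adjusted p = 0.023) that 7 alternatives did not keep. Among these were the normexp correction (-0.27) and counting near-identical arrays once (-1.88). Leaving out normal lung 1 (-1.54), lung tumor 1 (-1.61) or lung tumor 3 (-1.47) also lost the call. Pgls, the lactonase of the NADPH-forming part of the branch, was looked at after its values were seen. It rose by 0.89 ± 0.08 (adjusted p = 0.00027), under 2-fold, with an adjusted p of 0.0896 when near-identical arrays were counted once.

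Among 33 other genes of the low-oxygen response 14 were tested, and 3 rose by at least 2-fold while 0 fell, also by the unadjusted p or the methods' t-test, against 11.5% and 16.7% of all genes tested, with a median of -0.13. With marked spots kept the list gave 6 rises and 3 falls of that size among 25 genes, as it did with the authors' values. Over all genes read with marked spots kept, 11.8% rose and 15.2% fell by as much. Under a 75th percentile shift 1 gene of the list fell. Among the 3 tested genes that rose were P4ha1, a collagen prolyl hydroxylase (1.38 ± 0.10, adjusted p = 0.00015), and Hmox1, the heme-degrading oxygenase (1.17 ± 0.06, adjusted p = 4.0e-05). P4ha1 and Hmox1 did not keep their calls with near-identical arrays counted once (adjusted p = 0.058 and 0.057). With limma, at an unadjusted p and by the methods' t-test 0 genes passed 2-fold among 4 tested of 13 other pyruvate and lactate genes, of which 1 passed the adjusted p with a smaller rise and 1 with a smaller fall. The same held for 8 tested of 17 genes of the citric acid cycle, with 3 smaller rises and 1 smaller fall by limma. These zeros hold for the genes left after outlier-marked spots were dropped, since with such spots kept 1 of 10 genes of the pyruvate and lactate list and 2 of 17 of the citric acid cycle rose by at least 2-fold and 0 fell, and 1 gene of the citric acid cycle fell without lung tumor 1.

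**Figure D4:**
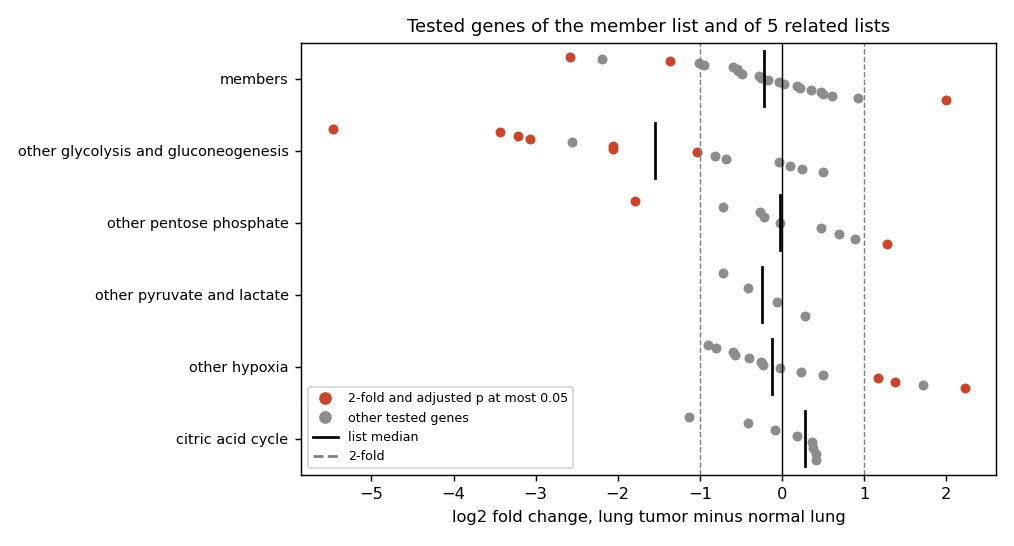
Log2 fold change of lung tumor over normal lung (x axis) for each tested gene of the member list and of 5 related lists (y axis), as fitted over 3 tumor and 3 normal arrays. Red points passed both thresholds, black bars are list medians and dashed lines show 2-fold; the other genes of glycolysis and gluconeogenesis have their median at -1.54, and the other medians lie between -0.24 and 0.28.

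The blood arrays give 1 value per condition, so that differences have no replicate check and no test was made. Of the 35 genes 32 could be compared, 29 of them well above background on both arrays, and Hk2, Pdk4 and Fbp1 were well above it on neither. In NNK blood 5 genes exceeded their control value by 2-fold or more and 7 fell short of it by as much, against 26.3% and 17.6% of the 9428 genes compared over the array. On both arrays well above background the counts were 5 and 5 of 29, against 21.2% and 13.5% of 7671 genes. The median difference over the 32 genes was -0.13, and -0.01 over all genes. The NNK array was the brighter one, with a 75th percentile of 205.8 against 95.4 for control blood, and the count of lower genes became 13 with a 75th percentile shift and 4 under the normexp correction.

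The largest rise was that of Tkt, from 11.30 in control blood to 14.07 in NNK blood (a log2 difference of 2.77). Slc2a1 went from 6.50 to 8.44 (1.94) and Pgam1 from 10.53 to 12.44 (1.90). These 3 genes also read higher in tumor than in normal lung, by less than 2-fold, Tkt with marked spots kept. Other genes changed direction. Egln3 (0.47) and Slc16a1 (0.43, not past the adjusted p) read higher in tumor but lower in NNK blood (-2.18 and -1.92). Pdk1 read lower in tumor (-0.17, not past the adjusted p) but higher in NNK blood (1.20). Bnip3, Adm and, without passing the adjusted p in lung, Pgam2 read lower in both. Slc16a3 went from 10.32 to 11.80 (1.49) and Pdk1 from 4.97 to 6.17 (1.20). Slc16a3 is thus the gene of the set that was at least 2-fold higher in both comparisons, with 1 array a side in blood and a blood difference of 0.76 under a 75th percentile shift. The difference of Pdk1, a dim gene in blood, was 0.60 under the normexp correction. Hif1a, with 6.04 against 6.84, stayed under 2-fold, but reached 1.47 with quantile normalization over all 8 arrays and 1.30 with the authors' log2 values.

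The largest fall was that of Pgam2, from 11.04 in control blood to 5.75 in NNK blood (-5.28, 38.9-fold). Pgam2 is the muscle form of the enzyme, and of 5 skeletal muscle markers with a probe Ckm, Tnnt3 and Tnni2 were not well above background on either blood array. The other 2, Acta1 and Myh4, were well above it in control blood only, so that their falls are bounds of at least 1.24-fold and 1.37-fold. The summed signal of the list was 62.4 in control and 31.9 in NNK blood, and the part of muscle RNA in the difference of Pgam2 was not tested. Egln3 went from 8.83 to 6.65 (-2.18), Slc16a1 from 7.68 to 5.76 (-1.92), Bnip3 from 8.24 to 6.65 (-1.60) and Slc2a3 from 8.19 to 7.15 (-1.04, and -0.79 under the normexp correction). The lactate transporters Slc16a1 and Slc16a3 thus moved in opposite directions between these arrays. Vegfa and Adm were well above background in control blood only, and the fall of Adm is a bound of at least 1.62-fold. The value of Vegfa (-1.92) rests on 1 of its 5 probes, since the other 4 were well above background on neither array and differed by -0.21 to 2.02, so that no direction is given for this gene in blood. Of the 5 genes of the low-oxygen response 4 counted as lower in NNK blood by the measured difference of the brightest probe, that of Vegfa included, against 17.6% of genes over the array. Among these, Vegfa (-0.49) and Adm (-0.20) were within 2-fold under the normexp correction, and Adm also under a 75th percentile shift (-0.79).

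Gapdh read 12.12 and 11.81 (-0.30) and Ldha 13.59 and 13.32 (-0.27), so that both stayed within 2-fold in blood, as did Pkm, Aldoa, Pgk1, Eno1 and Taldo1. Under a 75th percentile shift Gapdh (-1.21), Ldha (-1.26), Pkm (-1.30) and Taldo1 (-1.08) were more than 2-fold lower, and Aldoa, Pgk1 and Eno1 were not. White cell markers differed between these arrays as well. The summed signal of the neutrophil list was 15170 in control and 71370 in NNK blood, with 3 of 5 compared genes at least 2-fold higher and Ngp and Ltf on neither array. Most of both sums was S100a8 (13.71 in control and 16.04 in NNK blood). The T cell list had 4 of 6 at least 2-fold higher with sums of 18660 and 19060, and the platelet list 3 of 4 at least 2-fold lower with 129200 and 74940. The part of blood cell makeup in the differences of Tkt, Slc2a1, Pgam1 and the others was not tested.

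**Figure D5:**
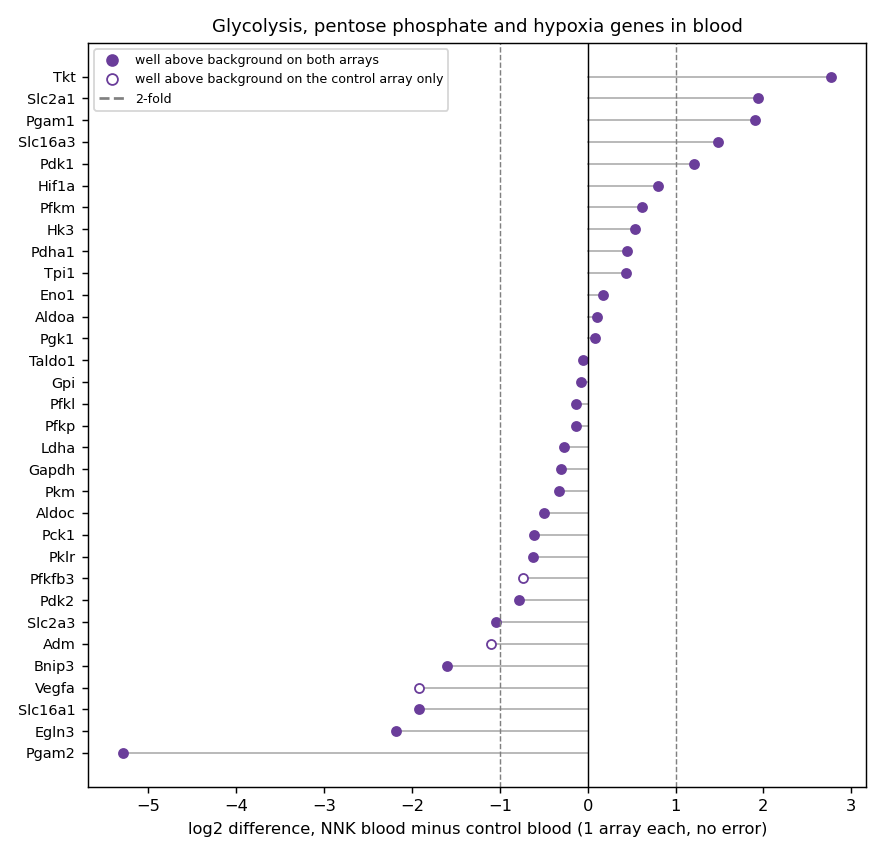
Log2 difference of NNK blood minus control blood (x axis) for the 32 genes compared (y axis), 1 array per condition and therefore without error. Filled points were well above background on both arrays and open ones on the control array only, and dashed lines show 2-fold; Tkt at 2.77 and Pgam2 at -5.28 are the ends of the range.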

How the data were processed

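RNA of 6 lung and 2 blood samples was measured on 1-colour arrays. The authors deposited, per the labels, the intensity of each spot as Agilent Feature Extraction 10.5.1.1 gave it, background-subtracted and not normalized between arrays. Besides these, log2 values quantile-normalized by the authors in GeneSpring served as an alternative. For the main analysis, quantile normalization was applied to log2 processed signals, separately to the 6 lung and the 2 blood arrays (R 4.3.3, limma 3.58.1). Outlier-marked spots were dropped and each probe's remaining spots averaged. Probes well above background on at least 3 lung arrays, with over 50% of their spots, were kept (15803), and those with at least 2 values per group were tested (12471) with lmFit and eBayes. Where fewer values were left, marked spots were kept, as chosen after seeing the data. Each gene is given by its brightest probe, named through RefSeq transcripts of GRCr8 (93.2% of mRNA probes matched). Every gene of the set is accounted for, called genes and Gapdh are given in full, and of each related list up to 4 called genes with the largest change are named, except that some genes of these lists are counted but not reported by name here. The members and lists were chosen with earlier results of these data known. The study calls tumors and normal lungs matched, and samples of the same number in their titles were taken as pairs. The correlation of their deviations from the group means was 0.14, -0.04 and 0.16. Alternatives were another scaling (75th percentile shift or quantile normalization over 8 arrays), the normexp correction with an offset of 50, a signal floor of 5, other filters on dim probes, marked spots kept, the authors' values, the methods' t-test, the replicate number or slide as a block, near-identical arrays counted once, each lung array left out and the mean over probes. The fit was tested on simulated data.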

Additional observations from a re-analysis of the deposited data

How the results depend on the processing

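Of the genes of the set, 1 was called higher and 2 lower in lung tumor. The count of higher genes became 2 under the normexp correction, where Hk3 passed 2-fold, and was 1 in the other alternatives run. The count of lower genes became 4 with the authors' log2 values, ranged from 2 to 4 when each lung array was left out in turn (4 without normal lung 3, with Aldoc and Gpi added) and was 3 with the replicate block, where pairing by number added Aldoc. The replicate block changed no other call at both thresholds, and by the adjusted p alone 12 of 13 genes passed with it and 13 of 13 with the slide as a block. Pdha1, with marked spots kept, reversed to -0.72 with the slide as a block. In blood the count of lower genes was 13 with a 75th percentile shift, which moved the median of all genes to -0.18, and 4 under normexp. Over all probes tested, 1683 rose and 1929 fell, against 967 and 1256 under normexp and 778 and 976 with near-identical arrays counted once. The methods' t-test with Benjamini-Hochberg adjustment called 1545 and 1830, and it called 1 and 2 genes of the set both after adjustment and at the unadjusted threshold of the methods. In each case the cause was not tested. Array number limits the precision, and the 6 lung arrays may hold as few as 3 separate samples. That count rests on differences below the spread between spots over many probes, while single genes such as Aldoc differed more. Dim genes such as Pgam2 and Tktl1 rest on signals near background.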

Other observations

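Several genes of the related lists lost their tumor spots to outlier marks and were read with these spots kept, a choice made after the data were seen, as was the choice of the genes named here. Among the other genes of the low-oxygen response, Bhlhe40, a transcriptional repressor, was higher in tumor by 2.55 ± 0.21 (adjusted p = 0.0002, limma) and Ndrg1 by 1.02 ± 0.06. Edn1, the vessel-constricting peptide of endothelial cells, was lower by a log2 fold change of -2.58 ± 0.13 (adjusted p = 2.9e-05), Ddit4, a brake on growth signaling, by -1.84 ± 0.06 and P4ha2 by -1.29 ± 0.06. P4ha1 and P4ha2, which both encode catalytic subunits of collagen prolyl hydroxylase, thus went in opposite directions in lung tumor. Ddit4 read 7.95 in control blood and 10.34 in NNK blood, the reverse of its direction in lung. Of these genes Bhlhe40, Edn1, Ddit4 and P4ha2 passed with near-identical arrays counted once (adjusted p = 0.037, 0.031, 0.032 and 0.047).

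In the other lists, Fbp2, the muscle form of the gluconeogenic enzyme of which Fbp1 is the liver form, was higher in tumor by 1.87 ± 0.07 (adjusted p = 1.1e-05) and Gpd2, which passes electrons from glycolysis to the mitochondria, by 1.86 ± 0.10 (adjusted p = 3.6e-05). Among muscle markers, Tnni3 (1.05) and Actc1 of 4 tested heart genes were called higher. Tnnt2 was also called higher with marked spots kept (4.94), and Myh6 was called lower (-1.95). Actc1 was well above background on the 3 tumor arrays and on 0 normal arrays, so that its rise is a bound of at least 1.04-fold. The heart list had a summed signal of 1361 to 1509 in normal lung and 3104 to 3837 in tumor, with Myl7 not well above background on any lung array. Both tested skeletal muscle genes, Acta1 (0.65) and Tnni2 (0.72), rose by less than 2-fold, with sums of 580.2 to 695.1 and 858 to 1060. The part of muscle cells in the value of Fbp2 was not tested. Mpc2, a subunit of the mitochondrial pyruvate carrier, was higher by 1.40 ± 0.14 (adjusted p = 0.00037), and Suclg2 and Fh of the citric acid cycle by 2.28 ± 0.16 and 1.17 ± 0.14. Their outlier-marked spots limit these values.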
